A study of Rattus norvegicus with 4 samples.

Results

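Schwann cells and melanocytes both arise from the neural crest, and the 8 genes described here mark these cells or their shared regulators. The myelin and Schwann cell genes were Mbp, Pmp22, Prx and Sox10, and the pigment cell genes were Dct, Tyrp1, Mitf and Kit. They were taken by gene symbol from a table of 54532 gene rows, in which each of the 8 symbols occurred once. Schwann cells wrap peripheral axons, and the myelinating ones build a compact membrane sheath from a small set of abundant proteins under the control of the transcription factors SOX10 and EGR2. Melanocytes of skin and hair follicles make melanin in organelles called melanosomes, with enzymes whose genes are switched on by the transcription factor MITF, and they depend on the receptor KIT for survival and migration. Sprague Dawley rats are albino, so their melanocytes make no pigment.

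The libraries came from ear skin of 2 Sprague Dawley rats at the injected site, 3 days after injection of an adeno-associated virus (AAV), a small virus engineered to carry a gene into cells. In the AAV-Fgf7 group, labelled Fgf7 overexpression, the virus carried the gene of fibroblast growth factor 7, a factor of mesenchymal cells that acts on epithelium. In the AAV-control group, labelled wt, the other ear of the same rat was given a control virus. Each group held 2 libraries, 1 per rat, so every ear had a viral injection and uninjected skin was not analysed here. The sources used here name neither the promoter nor the species of the Fgf7 insert.

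Library totals were 1433247 and 1417294 counts in the AAV-Fgf7 libraries of rats 1 and 2, against 1299136 and 1601321 in the control libraries. Fgf7, read as a check of the labels, had 454 and 1429 counts in AAV-Fgf7 ears, against 94 and 110 in control ears. The rat reads are listed under mouse gene models, the sources used here do not say how they were assigned, and a gene whose reads were lost on the way would look silent. With edgeR's quasi-likelihood test, 0 of 6370 tested genes (0.00%) passed an adjusted p of 0.05, with 148 (2.32%) at an unadjusted p under 0.05. The delivered gene was thus missed too: edgeR put Fgf7 3.18 log2 units higher in AAV-Fgf7 ears (unadjusted p = 0.0010, adjusted p = 0.9995). A gene not called by this test is therefore not shown to be unchanged. DESeq2 called 4 genes, Fgf7 among them but none of the 8, and limma-voom called 0. Markers of other tissues differed widely between ears of 1 group. Summed CPM (counts scaled to a common library total with TMM factors) of a hair follicle list was 3834 and 212 in AAV-Fgf7 ears, against 111 and 1200.2 in control ears. That of a skeletal muscle list was 32803 and 15931 in AAV-Fgf7 ears, against 15016 and 62323 in control ears.

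Of the 8 genes, 4 passed the low-count filter (Pmp22, Mbp, Sox10 and Mitf) and 4 did not (Kit, Dct, Tyrp1 and Prx). No member was called between AAV-Fgf7 and control ears. Per length, Pmp22 was the most abundant of the 8, and Mitf varied most over the libraries among the 4 tested. Dct, Tyrp1 and Prx had 4, 3 and 3 counts over all 4 libraries. In bulk skin, fewer cells of a type and less RNA per cell cannot be told apart.

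**Figure D1:**
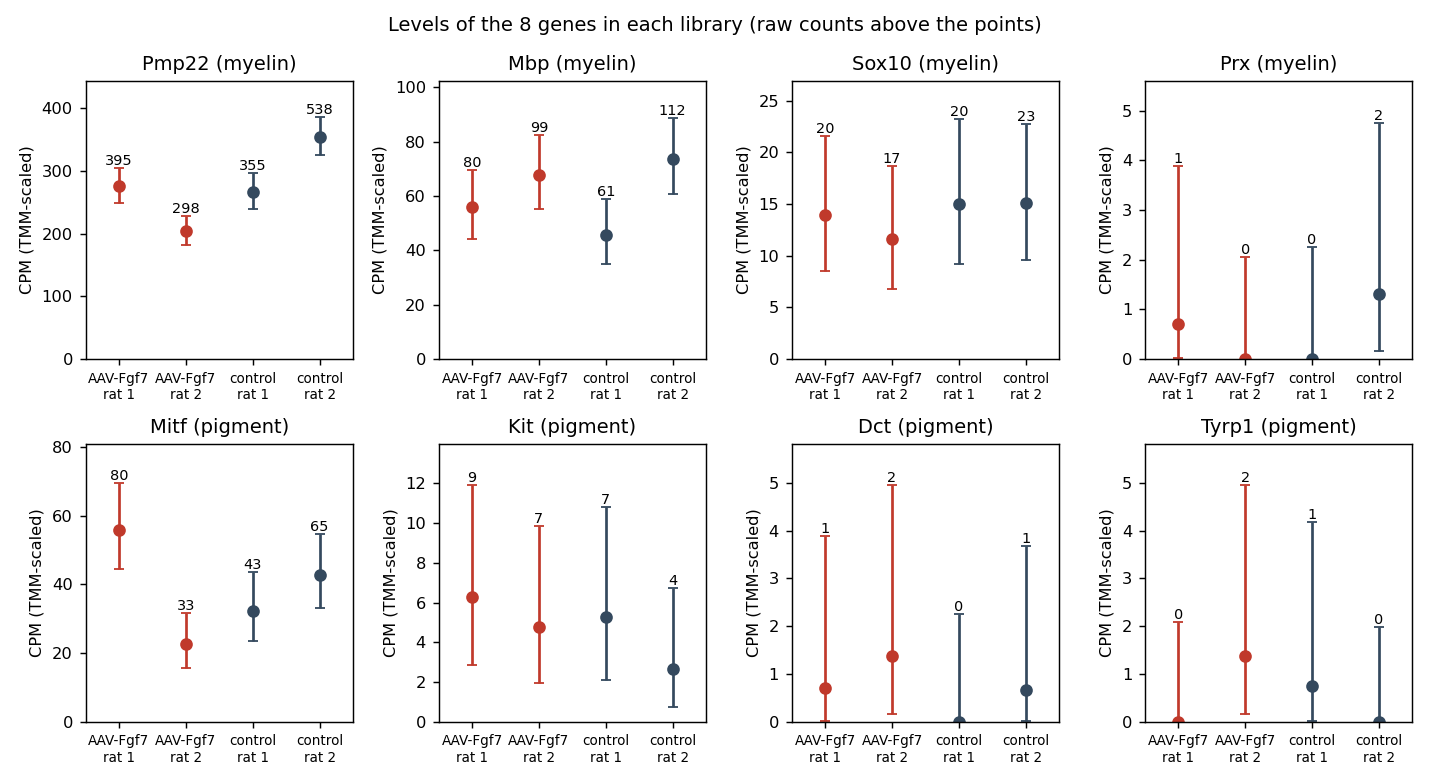
CPM (TMM-scaled) of each of the 8 genes in the 4 libraries, with AAV-Fgf7 ears in red and control ears in dark blue. Bars are exact 95% intervals of the count, which cover counting error only (for a count of 0 they end at the limit of 3 counts), and the numbers above them are raw counts. The 4 genes with at least 17 counts in every library are Pmp22, Mbp, Sox10 and Mitf, and Prx, Dct and Tyrp1 never exceed 2 counts.

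Pmp22 encodes a small membrane protein of compact myelin whose gene dosage is linked to inherited neuropathy, and skin fibroblasts and other cells also transcribe it. Its row, ENSMUSG00000018217, gives mouse chromosome 11, 63128982 to 63159547 (plus strand), and a length of 2354 bases. No source used here names the mouse build of these coordinates. Pmp22 had 395 and 298 counts in the AAV-Fgf7 ears of rats 1 and 2, against 355 and 538 in their control ears. In CPM these were 276 and 204 in AAV-Fgf7 ears, against 267 and 354 in control ears. The control ear of rat 2 was highest and the AAV-Fgf7 ear of rat 2 lowest, and the groups overlapped because the ears of rat 1 were nearly level. The group means were 240 ± 50.8 CPM in AAV-Fgf7 ears and 310 ± 61.9 CPM in control ears (SD, n = 2 each). The log2 fold change was -0.37 (SE 0.25), with a 95% interval of -0.98 to 0.24 and an edgeR adjusted p of 0.9995. Within rats, the ratio of the AAV-Fgf7 ear to the control ear was 1.03 in rat 1 and 0.576 in rat 2, so a difference was seen in rat 2 alone. The fibroblast list was also lowest in the AAV-Fgf7 ear of rat 2, at 40280 and 27472 CPM in AAV-Fgf7 ears, against 34486 and 39595 in control ears. Its part in the Pmp22 values was not tested.

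Mbp encodes myelin basic protein, which seals the cytoplasmic faces of the myelin membrane, and longer transcripts of the same locus are made in other cells. Mbp (ENSMUSG00000041607, length of 8403 bases) had 80 and 99 counts in AAV-Fgf7 ears, against 61 and 112 in control ears. The corresponding levels were 55.9 and 67.8 CPM in AAV-Fgf7 ears, against 45.8 and 73.7 CPM in control ears. Both AAV-Fgf7 libraries lay between the controls. The 95% counting intervals of the control libraries, 35.0 to 58.9 CPM in rat 1 and 60.7 to 88.7 CPM in rat 2, did not overlap, so these ears differed by more than counting error without Fgf7 delivery. The log2 fold change was 0.05 (SE 0.33), with a 95% interval of -0.75 to 0.85 (edgeR adjusted p = 0.9995), and it was negative without the control library of rat 1 (-0.25) or without the AAV-Fgf7 library of rat 2 (-0.10). Pmp22 and Mbp were thus not ordered alike across libraries: the AAV-Fgf7 ear of rat 2 was lowest for Pmp22 and second highest for Mbp.

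Sox10 encodes the SRY-box factor that neural crest cells need to become Schwann cells or melanocytes, so its transcript is shared by both cell types. Its row, ENSMUSG00000033006, gives mouse chromosome 15, 79154908 to 79165240 (minus strand), and a length of 3051 bases. Sox10 had 20 and 17 counts in AAV-Fgf7 ears, against 20 and 23 in control ears. Scaled to depth, these were 14.0 and 11.6 CPM in AAV-Fgf7 ears, against 15.02 and 15.14 CPM in control ears. Both AAV-Fgf7 libraries lay below both controls, the only such case among the 4 tested members. Of all tested genes, 13.3% lay below both controls in this way, and 28.1% had groups that did not overlap in either direction. The counting intervals of all 4 libraries overlapped, from 6.78 CPM at the lowest bound to 23.2 CPM at the highest. The log2 fold change was -0.23 (SE 0.40), with a 95% interval of -1.22 to 0.75 (edgeR adjusted p = 0.9995). Of the 4 tested members Sox10 varied least over the libraries. With 2 libraries per group at this depth, a change within that interval is not excluded. The interval is not a limit of detection.

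Prx encodes periaxin, a scaffold protein of myelinating Schwann cells that links the sheath to the basal lamina. It is listed as ENSMUSG00000053198, with a length of 5579 bases. It had 1 and 0 counts in AAV-Fgf7 ears, against 0 and 2 in control ears. A count of 0 allows a level of up to 2.05 CPM in the AAV-Fgf7 ear of rat 2 and 2.25 CPM in the control ear of rat 1. Drp2, whose product is the partner of periaxin in the sheath, did have counts, at 23 and 16 in AAV-Fgf7 ears against 16 and 30 in control ears.

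The wider Schwann cell lists place these values. Of 36 Schwann cell genes, the 4 members included, 31 had a count, 17 passed the low-count filter and 0 were called by edgeR. Their log2 fold changes were above 0 for 7 genes and below 0 for 10, with a median of -0.23, against -0.02 over all 6370 genes. In 2 of the 17 both AAV-Fgf7 libraries lay above both controls and in 3 below, a share of 29.4% that is close to the 28.1% of all genes. Only Pou3f1 had an unadjusted p under 0.05, where 2.32% of all genes did.

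Junction and adhesion genes of the sheath had few counts. Cldn19, a claudin of Schwann cell junctions, had 5 and 4 counts in AAV-Fgf7 ears, against 13 and 10 in control ears, and was too low to test. Gjb1, a connexin gene of Schwann cells, had 11 and 6 counts in AAV-Fgf7 ears, against 9 and 10 in control ears, and Mag, an adhesion protein gene of the inner sheath, had 5 and 6 in AAV-Fgf7 ears, against 4 and 10 in control ears. Gldn, Ncmap and Pllp had no counts in any library.

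Of the transcription factors of myelination, Pou3f1 had the lowest p. Pou3f1 encodes OCT6, a POU factor of Schwann cells before they myelinate that is also made in epidermis. It had 281 and 282 counts in AAV-Fgf7 ears, against 183 and 164 in control ears. In CPM it stood at 196 and 193 in AAV-Fgf7 ears, against 137 and 108 in control ears. The AAV-Fgf7 libraries were level with each other and above both controls. The log2 fold change was 0.67 (SE 0.21), with an unadjusted p of 0.0200 and an edgeR adjusted p of 0.9995. The basal keratinocyte list summed to 1969 and 3702 CPM in AAV-Fgf7 ears, against 1284 and 1234 in control ears, and its part in the Pou3f1 difference was not tested. Egr2, the zinc finger factor that switches on the myelin genes, stood at 28.6 and 48.6 CPM in AAV-Fgf7 ears, against 29.3 and 22.4 in control ears.

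Of the 15 genes of immature and non-myelinating Schwann cells 7 were tested, 2 with a log2 fold change above 0 and 5 below, and 0 were called. S100b, a calcium-binding protein gene that cartilage and fat cells also use, had 20 and 7 counts in AAV-Fgf7 ears, against 20 and 36 in control ears, and a log2 fold change of -1.05 (SE 0.60). The cartilage list summed to 1087 and 641 CPM in AAV-Fgf7 ears, against 584 and 2121 in control ears, with its highest value in the library where S100b was highest, and its part in the S100b values was not tested. Foxd3, a neural crest factor, had 9 and 5 counts in AAV-Fgf7 ears, against 13 and 12 in control ears. Gfap, an intermediate filament gene of non-myelinating Schwann cells, had 151 and 113 counts in AAV-Fgf7 ears, against 116 and 236 in control ears. Gap43, a growth-associated gene of Schwann cells and axons, had 260 and 90 in AAV-Fgf7 ears, against 148 and 274 in control ears. Ngfr, the low-affinity neurotrophin receptor gene, had 2 counts in the AAV-Fgf7 ear of rat 2 and none elsewhere, and Cdh19 and Plekha4 had none. Axonal genes were sparse, since 2 of 13 passed the filter, and the neurofilament genes Nefl, Nefm and Nefh had at most 6 counts in a library.

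Upstream of myelination, neuregulin from axons acts on the receptor pair of ERBB3 and ERBB2 on Schwann cells. Nrg1 had 5 and 20 counts in AAV-Fgf7 ears, against 8 and 5 in control ears, and did not pass the filter. Erbb3 had 17 and 8 in AAV-Fgf7 ears, against 13 and 6 in control ears, so it was higher in rat 1 than in rat 2 under both viruses. Erbb2, which keratinocytes also express, had 15 and 12 counts in AAV-Fgf7 ears, against 7 in each control ear, a log2 fold change of 0.91 (SE 0.54) with an edgeR adjusted p of 0.9995.

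Set per length, the members spanned a wide range. The authors' FPKM (counts scaled by gene length and library total) of Pmp22 averaged 101 ± 21.2 in AAV-Fgf7 ears and 131 ± 25.8 in control ears (SD, n = 2 each). Mbp followed at 7.29 ± 1.01 FPKM in AAV-Fgf7 ears and 7.07 ± 2.32 in control ears, Mitf at 6.27 ± 3.75 FPKM in AAV-Fgf7 ears and 6.02 ± 1.18 in control ears, and Sox10 at 4.16 ± 0.53 FPKM in AAV-Fgf7 ears and 4.91 ± 0.016 in control ears. Mbp and Mitf did not differ beyond their spread, and neither did Mitf and Sox10, in either group. Kit stood at 0.616 ± 0.116 FPKM in AAV-Fgf7 ears and 0.440 ± 0.208 in control ears. Tyrp1, Dct and Prx averaged 0.186, 0.115 and 0.0895 FPKM over the 4 libraries and rested on so few counts that their order carries no weight. These levels assume the listed mouse gene lengths, and how much of each rat transcript was counted is not known.

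**Figure D2:**
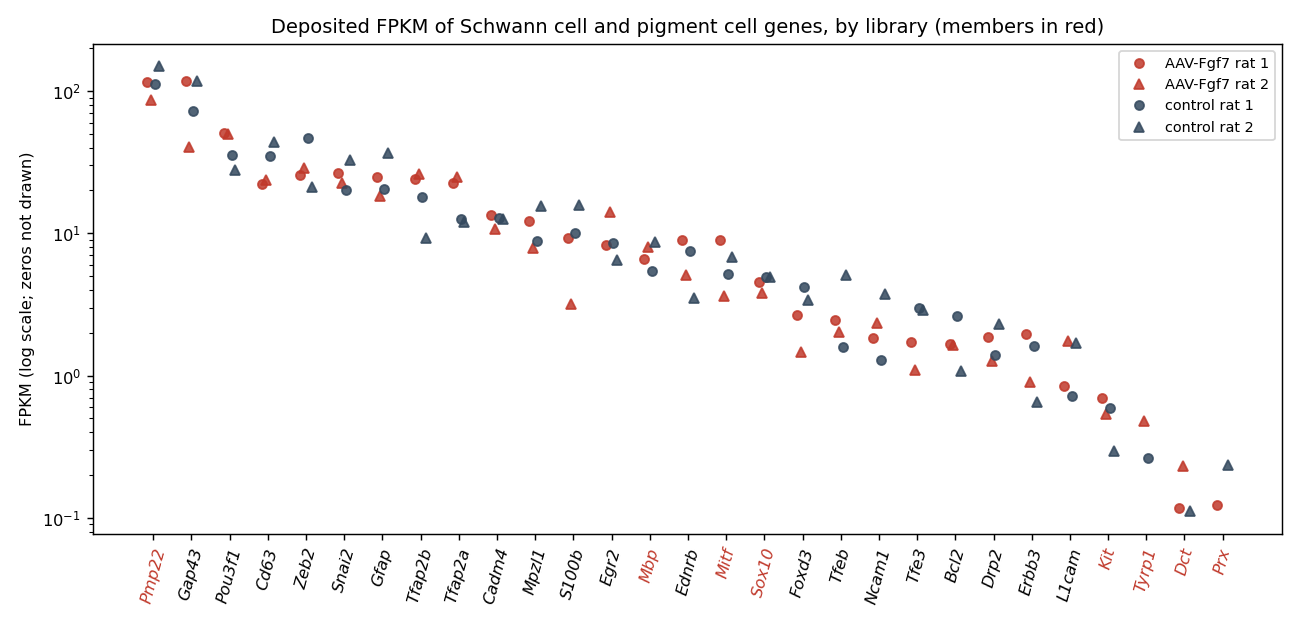
Deposited FPKM (log axis) of the 8 genes and of 21 other Schwann cell and pigment cell genes that passed the low-count filter, ordered by their mean, with 1 point per library and the 8 genes named in red. Pmp22 leads, Mbp, Mitf and Sox10 lie close together between 3.62 and 8.92 FPKM, and Kit, Tyrp1, Dct and Prx lie at the low end, where libraries at 0 are not drawn.

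Mitf was the pigment gene with enough counts to test. It encodes the basic helix-loop-helix factor that controls melanocyte survival and the melanin enzymes, and it is also active in mast cells, osteoclasts and macrophages. Its row, ENSMUSG00000035158, gives mouse chromosome 6, 97807052 to 98021349 (plus strand), and a length of 6196 bases. Mitf had 80 and 33 counts in the AAV-Fgf7 ears of rats 1 and 2, against 43 and 65 in their control ears. The levels were 55.9 and 22.6 CPM in AAV-Fgf7 ears, against 32.3 and 42.8 CPM in control ears. The AAV-Fgf7 ears held both the highest and the lowest library, with both controls between them. The counting intervals of the AAV-Fgf7 ears, 44.3 to 69.6 CPM in rat 1 and 15.6 to 31.7 CPM in rat 2, did not overlap. Between ears the ratio was 1.73 in rat 1 and 0.528 in rat 2, in opposite directions. The log2 fold change was 0.06 (SE 0.48), with a 95% interval of -1.10 to 1.22 (edgeR adjusted p = 0.9995). Its sign was not fixed, since limma-voom gave -0.076 and edgeR with the rat as a replicate block gave -0.049.

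The AAV-Fgf7 ear of rat 1 and the control ear of rat 2, where Mitf was highest, also held the highest sums of the hair follicle, skeletal muscle, cartilage and fibroblast lists. The sum of the fibroblast list followed the order of Mitf in all 4 libraries, over a narrower range. Col1a1 made up most of that sum, at 32725 and 22695 CPM in AAV-Fgf7 ears, against 27468 and 31834 in control ears. Col3a1 had the same order, but Col1a2, Pdgfra, Fbn1, Col6a2 and Col6a3 did not. The hair follicle list had its lowest library in the control ear of rat 1 and Mitf in the AAV-Fgf7 ear of rat 2. The skeletal muscle and cartilage lists were highest in the control ear of rat 2 and lowest in that of rat 1. The macrophage list, at 203 and 275 CPM in AAV-Fgf7 ears against 378 and 146 in control ears, was low where Mitf was high. Csf1r and Aif1 made up most of that sum, and 5 of the 11 genes of the macrophage list had no counts. The mast cell genes with counts beside Kit and Mitf were Cpa3, Cma1 and Gata2. Cpa3, a mast cell protease gene, had 7 and 14 counts in AAV-Fgf7 ears, against 8 and 9 in control ears, and Cma1, the mast cell chymase gene, had 10 and 8 in AAV-Fgf7 ears, against 10 and 10 in control ears. The part of these cell types in the Mitf values was not tested.

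**Figure D3:**
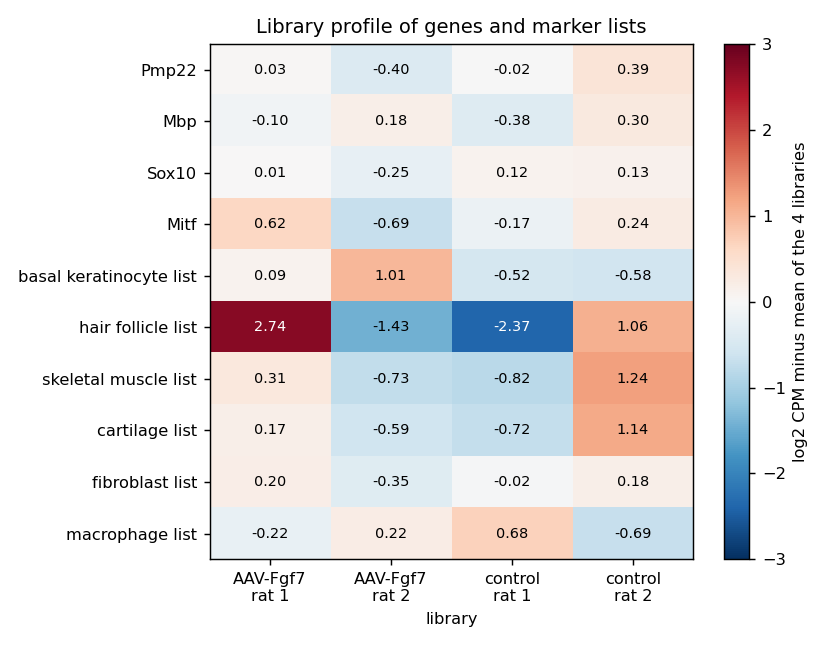
Log2 CPM of the 4 tested genes and log2 summed CPM of 6 marker lists, each minus its mean over the 4 libraries, with AAV-Fgf7 libraries on the left. Mitf runs from 0.62 in the AAV-Fgf7 ear of rat 1 to -0.69 in that of rat 2, the hair follicle list from 2.74 to -2.37 across libraries, and Sox10 stays between -0.25 and 0.13.

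Kit encodes the receptor tyrosine kinase for stem cell factor, carried by melanocytes and mast cells. Its row, ENSMUSG00000005672, gives mouse chromosome 5, 75574916 to 75656722 (plus strand), and a length of 8911 bases. Kit had 9 and 7 counts in AAV-Fgf7 ears, against 7 and 4 in control ears, and did not pass the filter. Pooled over rats, 16 counts in AAV-Fgf7 ears against 11 in control ears gave a ratio of 1.48 with an exact 95% counting interval of 0.645 to 3.53, so no difference was detectable at this depth. Its ligand gene Kitl, expressed by keratinocytes and fibroblasts, had 49 and 43 counts in AAV-Fgf7 ears, against 51 and 60 in control ears. Both AAV-Fgf7 libraries of Kitl lay below both controls, with a log2 fold change of -0.29 (SE 0.30) and an edgeR adjusted p of 0.9995.

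Dct and Tyrp1 encode melanosome enzymes that act after tyrosinase in melanin synthesis, and both were at the edge of detection. The row of Dct, ENSMUSG00000022129, gives mouse chromosome 14, 118012790 to 118052244 (minus strand). Dct had 1 and 2 counts in AAV-Fgf7 ears, against 0 and 1 in control ears. The row of Tyrp1, ENSMUSG00000005994, gives mouse chromosome 4, 80834123 to 80851719 (plus strand). Tyrp1 had 0 and 2 counts in AAV-Fgf7 ears, against 1 and 0 in control ears. No fold was taken, since both groups were at or below 3 counts, and a count of 0 allows up to 2.25 CPM for Dct in the control ear of rat 1 and up to 2.10 CPM for Tyrp1 in the AAV-Fgf7 ear of rat 1. Tyr, the tyrosinase gene, had 1 count in all, in the AAV-Fgf7 ear of rat 2. Of 14 genes of melanosome enzymes, matrix and transporters, 8 had no counts, namely Pmel, Mlana, Slc45a2, Oca2, Slc24a5, Gpr143, Gpnmb and Mcoln3. The defining markers of pigment cells therefore had counts at or near 0, and Mitf, Kit and Sox10 alone do not show melanocytes, since other cells of skin express them. Of the 12 genes of the fibroblast list 5 also had no counts, Dcn and Lum among them. A count of 0 under these mouse gene models thus does not show that a gene was silent.

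Sites of the kind through which MITF is known to act on the melanin enzyme genes are shown here for Dct and Tyrp1, and for Tyr and Gpr143. They were read from RefSeq promoter sequences of the rat assembly GRCr8. Each window has 30 bases, written from 5′ to 3′ on the strand of the gene, and the capitals mark the E-box core CATGTG or, in Gpr143, its reverse complement CACATG.
Dct, chr15:101508149-101508178, minus strand: tgcacttggggtCATGTGctaacaaagagg
Tyrp1, chr5:100327046-100327075, plus strand: tggggaaggagtCATGTGctgactgagtag
Tyr, chr1:150622960-150622989, minus strand: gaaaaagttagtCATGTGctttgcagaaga
Gpr143, chrX:25498563-25498592, plus strand: agaggcacagagCACATGacgtccaatctc
The core shown began 137 bases before the annotated start of Dct, 67 before that of Tyrp1, 120 before that of Tyr and 26 before that of Gpr143, which encodes a melanosome receptor. A second CATGTG in the Tyr promoter, not shown, began 27 bases before the annotated start. The search covered both strands of windows of 300 bases, and CATGTG occurred in 4675 of 33469 such promoters (14.0%). The longest run around the core that the Dct and Tyrp1 windows share is GTCATGTGCT, part of the element known as the M-box. It occurred on either strand in 22 promoters (0.0657%), among them those of these 4 genes, of which Dct and Tyrp1 had defined it. Of 12 melanosome genes with a promoter sequence 8 held CATGTG, and only the 4 shown held the longer run. Promoter sequences were found for 7 of the 8 members, all but Sox10, and neither motif was found in the windows of Mbp, Pmp22, Prx, Mitf or Kit. A match describes letters in a window and not the binding of a factor.

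Other genes of pigment cells had counts but are shared with other cells. Of 50 pigment cell genes, which include regulators and melanosome transport, 37 had a count, 14 passed the filter and 0 were called by edgeR. Their log2 fold changes were above 0 for 6 and below 0 for 8, with a median of -0.12, against -0.02 over all tested genes. The groups did not overlap for 5 of the 14, or 35.7%, against 28.1% of all tested genes. An unadjusted p under 0.05 was found for 4 of them (Tfap2a, Tfap2b, Tfe3 and Cd63), against 2.32% of all genes.

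Tfap2a and Tfap2b encode AP-2 factors of neural crest that also serve in epidermis. Tfap2a had 160 and 179 counts in AAV-Fgf7 ears, against 83 and 90 in control ears, so the groups were well apart. The log2 fold change of Tfap2a was 0.95 (SE 0.23), at an unadjusted p of 0.00563 and an edgeR adjusted p of 0.9995. Tfap2b had 220 and 242 counts in AAV-Fgf7 ears, against 152 and 90 in control ears, a log2 fold change of 0.88 (SE 0.33). Both were highest in the AAV-Fgf7 ear of rat 2, the library with the highest sum of the basal keratinocyte list. The part of keratinocytes in these values was not tested.

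Tfe3 and Tfeb are paralogs of Mitf that control lysosome genes in many cells. Tfe3 had 23 and 15 counts in AAV-Fgf7 ears, against 37 and 41 in control ears, a log2 fold change of -1.05 (SE 0.40) with an unadjusted p of 0.0369 and an edgeR adjusted p of 0.9995. Tfeb had 20 and 17 in AAV-Fgf7 ears, against 12 and 44 in control ears, so its groups overlapped. Cd63, a tetraspanin gene of lysosomes and melanosomes, stood at 82.4 and 87.7 CPM in AAV-Fgf7 ears, against 129 and 163 in control ears. Ednrb, the endothelin receptor gene of melanocytes and vessels, had 55 and 32 counts in AAV-Fgf7 ears, against 43 and 23 in control ears, with rat 1 above rat 2 under both viruses. The transport motor gene Myo5a had a log2 fold change of 0.10 (SE 0.25).

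**Figure D4:**
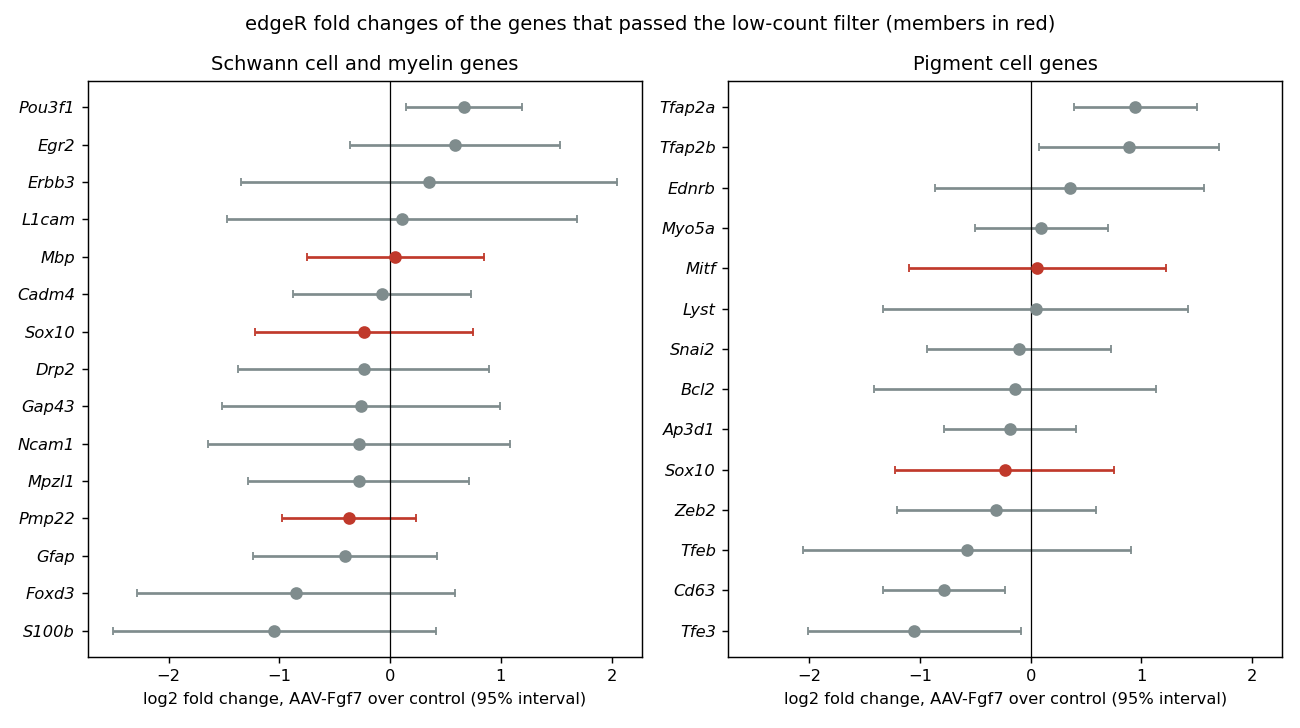
Log2 fold changes of AAV-Fgf7 over control with 95% intervals from edgeR, for 15 of the 17 Schwann cell genes and the 14 pigment cell genes that passed the low-count filter (Sox10 is in both). The intervals of Mbp, Sox10, Pmp22 and Mitf (red) all include 0, and those of Pou3f1, Tfap2a, Tfap2b, Cd63 and Tfe3 exclude it before adjustment over all genes.

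The tested genes with the closest profile over the 4 libraries were found for each member with a mean of at least 10 counts, by the root mean square difference of centred log2 CPM. For Mbp they were Eps15 (0.028), Tsen34 (0.034) and Pofut2 (0.034), and 84 genes lay within 0.1. For Pmp22 they included Ccdc88a (0.018) and Dnal4 (0.026), with 92 genes within 0.1. For Sox10 they were Srgap3 (0.0092), Togaram1 (0.012) and Cstf2 (0.017), with 234 within 0.1. For Mitf they were Lnx1 (0.041), Hspa2 (0.061) and Gm8355 (0.061), with 15 within 0.1. With 4 libraries such closeness is common for flat profiles such as that of Sox10 and rarer for the profile of Mitf.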

How the data were processed

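RNA was measured in ear skin of 2 rats, with 2 libraries per group. The authors deposited raw counts per gene and FPKM values for the same rows. Per the submitters' processing notes the build was Rnor_6.0 (rn6), yet all 54532 rows carry mouse Ensembl identifiers. No source used here names the aligner or counter. Titles and design text disagree on the ear side, which was not used. Both AAV-Fgf7 descriptions name 1 column, so the second treated column was taken as rat 2, from the 2 in its name and in the title of that sample.

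From the counts, filterByExpr kept 6370 genes (98.9% of counts), scaled by TMM. AAV-Fgf7 was compared with control with edgeR 4.0.16 in R 4.3.3 (quasi-likelihood, two-sided), with Benjamini-Hochberg adjustment over all tested genes at 0.05. SE is the log2 fold change over the root of F, and intervals use the t quantile. The common biological coefficient of variation was 29.1%. An exact permutation test of 2 against 2 libraries cannot go below a two-sided p of 0.33. Alternatives used DESeq2 1.42.0, limma 3.58.1 (voom, and log2 of deposited FPKM plus 1 or 0.1), other scaling and filters, left-out libraries and rat as a block. The ears of a rat carry the same number, which pairs them by animal, and their deviations from the group means correlated at -0.29 over genes. Chi-square per degree of freedom was 11.4 between AAV-Fgf7 libraries and 18.8 between controls, so none was a duplicate. The script was tested on simulated data. Counts are of reads without molecular identifiers, so intervals and the limit of 3 counts cover counting error only.

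Members and the 18 gene lists were chosen with earlier results of these data known. The rule for named genes took the 8 members, Fgf7, list genes that passed the filter, up to 4 others per list by summed count, and the 3 closest profiles per member. Tyr, Ngfr, Nefl, Nefh and the list genes without counts fall outside that rule and were named after their values were seen. A few genes that this rule names are not reported here.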

Additional observations from a re-analysis of the deposited data

How the results depend on the processing

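None of the 8 members was called in the main comparison or under any of the 14 alternatives. Kit, Dct, Tyrp1 and Prx were tested only in the alternative without the low-count filter, and elsewhere could not be called. The edgeR count of 0 called genes became 3 without the low-count filter and 4 with DESeq2, and ran from 0 to 19 when 1 library was left out. The 19 came without the control library of rat 1, which leaves a lone control. With rat as a replicate block 0 genes were called (75 at an unadjusted p under 0.05), and no call changed. A crossed replicate block, chosen after seeing the data, also called 0 genes. Pmp22 and Sox10 were negative under every alternative, from -0.60 to -0.15 and from -0.37 to -0.11 on the log2 scale. The value of Mitf was negative with limma-voom (-0.076), with limma on log2 FPKM at a pseudocount of 1 (-0.043) and 0.1 (-0.067), with the replicate block (-0.049) and with the crossed block (-0.028), and ran from -0.73 to 0.57 with 1 library left out. Mbp ran from -0.25 to 0.43 with 1 library left out. A fit without 1 library assumes that the lone library of its group varies like the others. At 1299136 to 1601321 counts per library, genes at a few counts, such as Kit, Dct, Tyrp1 and Prx, could not be compared between groups.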
